A study of Mus musculus with 12 samples.

Results

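Collagens and other matrix genes of stromal cells were examined in RNA-Seq libraries of mouse bone marrow-derived macrophages (BMMs). The set was a named list of 10 of the 38887 genes in the deposited tables, matched by gene symbol and Ensembl identifier. It held the fibrillar collagen genes Col1a1, Col1a2, Col3a1 and Col5a2, the matricellular genes Sparc, Postn and Fstl1, the small proteoglycan genes Dcn and Bgn, and the fibronectin gene Fn1. All 10 were detected in each of the 12 libraries, and all 10 passed the filter on low counts. Fibrillar collagens are made chiefly by fibroblasts, osteoblasts and other mesenchymal cells, which assemble them outside the cell into the fibres of bone, skin and scar. Matricellular proteins and small proteoglycans bind to these fibres and regulate their formation. Fibronectin, a large adhesive glycoprotein recognised by integrins, is made by stromal cells, and macrophages can make it too.

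BMMs were grown from the marrow of 3- to 4-month-old wild-type (WT) mice and mice with a myeloid-specific deletion of the RNA-binding protein IGF2BP2 (KO), for 6 days with 50 ng/ml M-CSF, a growth factor for macrophages. The libraries were of cells without stimulus (M0) or cells given IL-4 for 8 h at 20 ng/ml (M2), and the 4 groups of WT M0, KO M0, WT M2 and KO M2 held 3 libraries each. KO mice came from a cross of B6.Cg-Igf2bp2tm1.1Thor/J, with loxP sites around exons 4 and 5 of Igf2bp2, and 29P2-Lyz2tm1(cre)Ifo/J, in which Cre is driven by the Lyz2 locus, active chiefly in macrophages and neutrophils, although Cre from this locus is not fully restricted to myeloid cells. WT mice were littermates without the floxed alleles, of which some carried Cre. Marrow cells were left to attach overnight, the cells that did not adhere were taken on for differentiation, a step that leaves adherent stromal cells behind, and no sort is described. In such bulk samples, fewer cells of a type and less RNA per cell cannot be told apart.

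The genes lie at 10 places on 7 chromosomes of the mouse genome (GRCm38, GENCODE release M21). On chromosome 1, Col3a1 (start 45311538, end 45349706, plus strand) and Col5a2 (start 45374321, end 45503282, minus strand) are neighbours whose ends are 24614 bases apart, and Fn1 lies between 71585520 and 71653200 on the minus strand. Col1a1 (start 94936224, end 94953042, plus strand) and Sparc (start 55394500, end 55423183, minus strand) lie on chromosome 11. Col1a2 is on chromosome 6 (4504814 to 4541544), Postn on chromosome 3 (54361109 to 54391037), Dcn on chromosome 10 (97479609 to 97518143), Fstl1 on chromosome 16 (37776873 to 37836514) and Bgn on chromosome X (73483602 to 73495933), all on the plus strand. Fn1 shares 292 exon bases with the antisense gene Apol7d on the opposite strand, which had a highest count of 0 in any library. Col3a1 shares 141 with the annotated miRNA gene Gm47302.

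Promoter sequences were available for 6 of the 10 genes in the RefSeq table (GRCm38.p6), and for 3 of these the 100 bases before the transcript start held no annotated exon. They are shown because their genes varied together across the libraries. Capitals mark the sequence TATAAA, which was searched for on both strands together with CCAAT and with TTC and GAA separated by any 4 bases, a spacing bound by STAT6, the transcription factor activated by IL-4.
Col3a1, chr1:45311438-45311537, plus strand: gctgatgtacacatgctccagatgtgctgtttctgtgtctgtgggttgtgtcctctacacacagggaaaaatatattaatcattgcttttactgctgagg
Postn, chr3:54361007-54361106, plus strand: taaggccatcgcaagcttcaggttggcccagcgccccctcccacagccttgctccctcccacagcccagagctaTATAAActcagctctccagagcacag
Bgn, chrX:73483501-73483600, plus strand: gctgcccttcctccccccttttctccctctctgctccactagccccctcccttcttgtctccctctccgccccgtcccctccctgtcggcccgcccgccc
TATAAA was found in the Postn window only, and the other motifs in none of the 3. In windows of this length, TATAAA was present in 5.56% of the 32851 RefSeq promoters, CCAAT in 18.9% and TTC and GAA at the spacing of 4 bases in 2.03%. Thus none of the motifs was common to the 3 windows.

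Library totals ranged from 20011792 to 39632770 counts. Macrophage genes were abundant in each library, with a summed level of the 14 macrophage markers between 6840 and 9980 CPM, that is, counts scaled to a common library size. Igf2bp2, the deleted gene, was not called between KO and WT in M0 (log2 fold change -0.11, SE 0.13, edgeR's adjusted p = 0.656) and fell in M2 (-0.65, SE 0.13, edgeR's adjusted p = 0.0285). Counts over the whole gene include the exons that remain. Lyz2, the gene that carries Cre, was at 4180 to 10500 CPM in WT and 11 to 33.2 CPM in KO libraries, so that the genotypes also differed in this gene. For the matrix genes, both libraries of mouse WT1 lay above and both libraries of mouse KO3 below most others, so that comparisons of the genotypes and the response to IL-4 are also given without these mice.

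The matrix genes were expressed at low levels. By TPM, a measure of transcript abundance that takes gene length into account, the mean over 12 libraries was 5.47 for Col1a1, 5.45 for Sparc, 4.6 for Col1a2, 4.47 for Bgn, 2.9 for Fn1, 1.28 for Fstl1, 1.21 for Col3a1, 0.993 for Col5a2, 0.593 for Postn and 0.379 for Dcn. Neighbours in this order were mostly not separated. Col1a1 was above Sparc in 5 of 12 libraries, Col1a2 above Bgn in 5, Fstl1 above Col3a1 in 7, Col3a1 above Col5a2 in 8 and Postn above Dcn in 7. Sparc exceeded Col1a2 in 11 of 12 libraries, Fn1 exceeded Fstl1 in 10 and Col5a2 exceeded Postn in 11. The place of Fn1 depended on IL-4, as it was below Bgn in all 6 M0 libraries and above it in 3 of 3 KO M2 libraries and 1 of 3 WT M2 libraries. Read counts per gene and library lay between 5 and 824, and the lowest of them, 5 reads of Dcn, had an exact 95% Poisson interval of 1.62 to 11.7. Such intervals cover counting error only.

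**Figure D1:**
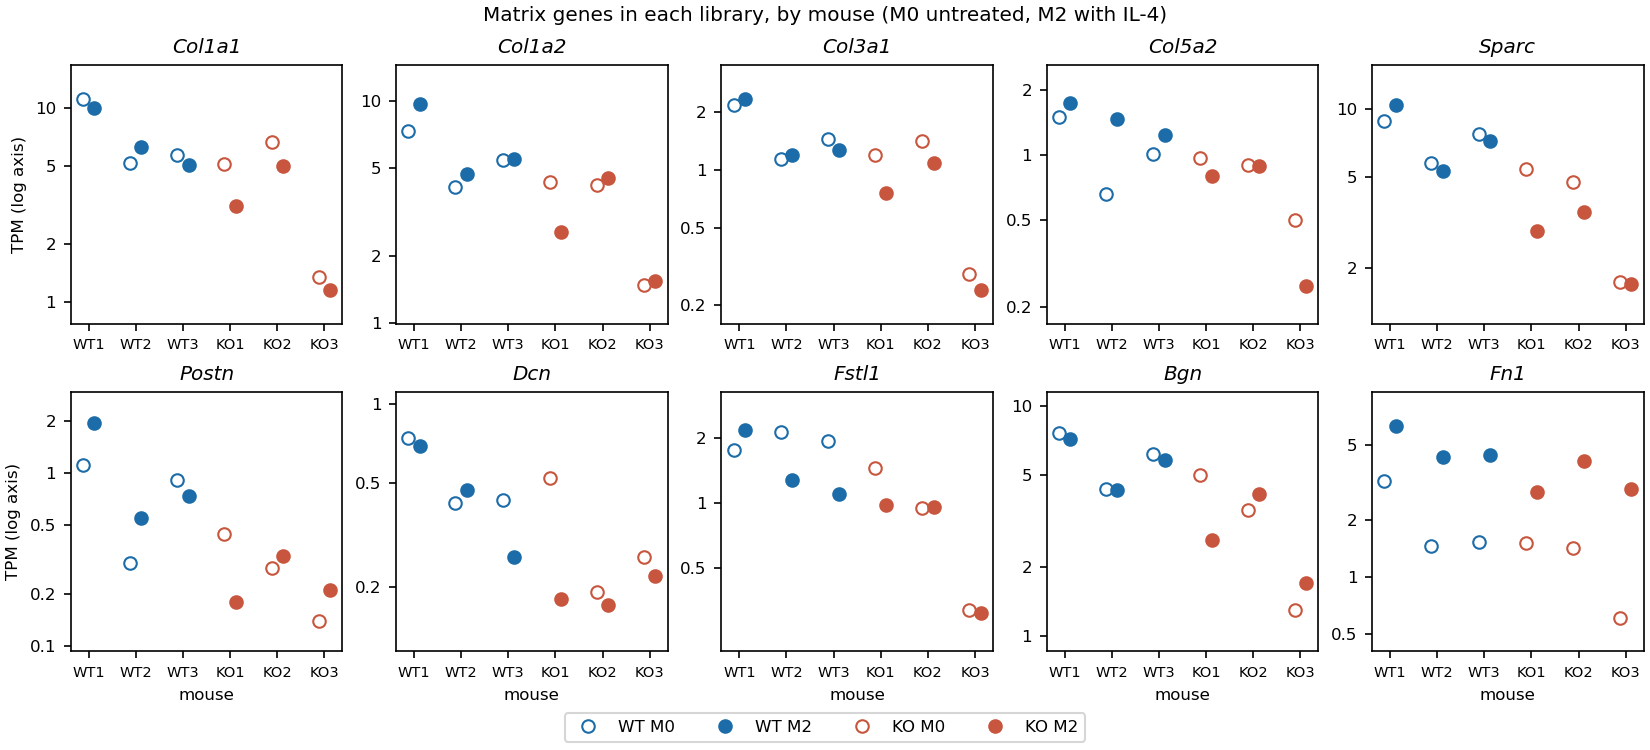
Level of each of the 10 matrix genes in TPM (log axis, a separate scale per gene) in the M0 (open) and M2 (filled) library of each of the 6 mice, with WT in blue and KO in red. Mouse WT1 was at or near the top and mouse KO3 at or near the bottom for most genes, and Fn1 was higher in M2 than in M0 in 6 of 6 mice.

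Col1a1 and Col1a2 encode the chains of type I collagen, the main collagen of bone and skin. Col1a1 was at 26.7, 15.2 and 17.9 CPM in the WT M0 libraries of mice 1, 2 and 3, at 13.4, 14.1 and 3.18 CPM in KO M0, at 26.8, 14.3 and 17.2 CPM in WT M2 and at 8.74, 11.3 and 3.96 CPM in KO M2. Col1a2 was at 19.4, 10.5 and 16.0 CPM in WT M0, 10.4, 11.1 and 3.6 CPM in KO M0, 24.7, 13.9 and 16.1 CPM in WT M2, and 8.29, 11.3 and 4.01 CPM in KO M2. The M0 and M2 libraries of a mouse had similar levels, whereas mice of 1 genotype differed by up to several fold. The ratio of Col1a2 to Col1a1 stayed between 69.1% and 113% over the 12 libraries, although the level of Col1a1 itself varied 8.41-fold. This ratio was higher in M2 than in M0 in each mouse but KO3.

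Col3a1 encodes type III collagen of vessels and soft tissue. It was at 6.4, 3.42 and 4.56 CPM in WT M0, 3.6, 4.32 and 0.885 CPM in KO M0, 7.36, 3.81 and 4.04 CPM in WT M2, and 2.56, 3.44 and 0.754 CPM in KO M2. Col5a2 encodes a chain of type V collagen, which regulates the diameter of collagen fibres, and was at 5.08, 2.37 and 3.74 CPM in WT M0, 3.45, 3.21 and 1.22 CPM in KO M0, 6.45, 4.43 and 4.7 CPM in WT M2, and 2.56, 3.31 and 0.942 CPM in KO M2. Both had their highest value in mouse WT1 and their lowest in mouse KO3, in M0 as well as in M2. In M0 the WT and KO values overlapped for both, and in M2 they did not.

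Sparc, which encodes a collagen-binding matricellular protein, was at 9.96, 6.41 and 9.31 CPM in WT M0, 6.24, 5.46 and 1.99 CPM in KO M0, 12.3, 6.65 and 8.64 CPM in WT M2, and 3.84, 4.22 and 2.02 CPM in KO M2. All WT values exceeded all KO values within each treatment. Postn encodes periostin, a matrix protein of bone-lining and activated fibroblasts, and was at 1.49, 0.493 and 0.935 CPM in WT M0, 0.735, 0.477 and 0.249 CPM in KO M0, 2.32, 0.928 and 1.28 CPM in WT M2, and 0.339, 0.543 and 0.242 CPM in KO M2. Its groups overlapped in M0 but not in M2, on 9 to 51 reads per library. Fstl1, which encodes a secreted glycoprotein of mesenchymal cells, was at 3.53, 2.37 and 3.31 CPM in WT M0, 2.61, 1.96 and 0.581 CPM in KO M0, 3.23, 2.37 and 2.35 CPM in WT M2, and 1.32, 1.86 and 0.673 CPM in KO M2. Like Postn, it overlapped between the genotypes in M0 and not in M2.

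Bgn encodes biglycan, a small proteoglycan of bone and connective tissue. It was at 6.92, 4.3 and 5.76 CPM in WT M0, 4.59, 4.62 and 1.44 CPM in KO M0, 7.59, 4.28 and 5.78 CPM in WT M2, and 3.43, 4.22 and 1.59 CPM in KO M2. Dcn encodes decorin, the related proteoglycan that decorates collagen fibrils, and was at 0.679, 0.394 and 0.428 CPM in WT M0, 0.514, 0.186 and 0.249 CPM in KO M0, 0.681, 0.464 and 0.256 CPM in WT M2, and 0.188, 0.181 and 0.215 CPM in KO M2. Dcn was the 1 gene of the 9 other than Fn1 whose lowest mouse was not KO3, on 5 to 21 reads per library.

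For these 9 genes the means per mouse, over both genotypes, were spread more widely than the changes with IL-4. Mouse WT1 was highest for 9 of 9 in M0 and 9 of 9 in M2, and mouse KO3 was lowest for 8 of 9 in M0 and 8 of 9 in M2. The highest library exceeded the lowest between 3.76-fold for Dcn and 9.77-fold for Col3a1. For Col1a1 the mouse means had an SD of 0.98 on the log2 scale, compared with an SD of 0.32 for the change from M0 to M2 within a mouse. For Postn the SDs were 1.01 and 0.71, for Col5a2 0.82 and 0.5, and for Dcn 0.67 and 0.62. The SD of the mouse means includes the difference between the genotypes. That of the change describes its spread and not its size, as Fn1 had 0.55 and 0.46 although it rose with IL-4 in each mouse. The summed level of the 9 genes was 80.1, 45.5 and 62.0 CPM in WT M0, 45.6, 45.5 and 13.4 CPM in KO M0, 91.3, 51.1 and 60.4 CPM in WT M2, and 31.3, 40.4 and 14.4 CPM in KO M2. In TPM the sum had a mean ± SD (n = 3) of 32.3 ± 9.13 for WT M0, 18.2 ± 9.44 for KO M0, 33.2 ± 11.1 for WT M2 and 14.0 ± 6.64 for KO M2. As a description over 12 libraries that come from 6 mice, log2 CPM of 8 of the genes correlated with the mean of the other members at a Pearson r between 0.925 for Postn and 0.985 for Sparc, and that of Dcn at 0.651.

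The first comparison asked whether the loss of IGF2BP2 altered the matrix genes. All 10 lay lower in KO than in WT in both treatments, but edgeR's quasi-likelihood test called 0 of 10 at an adjusted p under 0.05 in either, whereas DESeq2 called 2 in M2. In M0 the log2 fold changes of the 9 genes other than Fn1 ranged from -1.03 for Postn to -0.52 for Col5a2, with a median of -0.86, beside a median of -0.001 for all 12846 genes tested, and edgeR's adjusted p from 0.142 to 0.505. Of the genes tested, 9.78% were called in M0, so that 0 of 10 members is not above the background. An unadjusted p under 0.05 was obtained for Sparc (log2 fold change -0.92, SE 0.37) and Fn1 (-0.82, SE 0.34), compared with 3252 of all 12846 genes, and DESeq2 called 0 members as well. The groups did not overlap for Col1a1 and Sparc, 2 of 10, compared with 31.1% of all genes.

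In M2 the fold changes of the 9 genes lay further below 0, although the difference between M2 and M0 in this respect was called for 0 of them. They had log2 fold changes from -1.99 (Postn, SE 0.51, edgeR's adjusted p = 0.0588) to -0.94 (Bgn, SE 0.42, edgeR's adjusted p = 0.231), with a median of -1.21. Sparc had -1.46 (SE 0.38, edgeR's adjusted p = 0.066), Col1a1 -1.29 (SE 0.48, edgeR's adjusted p = 0.159) and Col1a2 -1.21 (SE 0.42, edgeR's adjusted p = 0.138). Of all genes, 2.68% were called, and of the members 0 of 10, with 8 at an unadjusted p under 0.05, which 2611 of all 12846 genes had. For all 10 members the KO and WT values did not overlap in M2, compared with 24.8% of all genes, but because the members varied together these are not 10 separate observations. Postn and Sparc were called by DESeq2 (adjusted p = 0.0115 and 0.00507) and, without a filter on low counts, by edgeR (adjusted p = 0.026 and 0.0185).

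Mice WT1 and KO3 were the highest WT and the lowest KO mouse for these genes, so that leaving them out had to narrow the difference, and the values without them are given as a description. Without mouse WT1 the median log2 fold change of the 9 genes was -0.57 in M0 and -0.93 in M2, and without mouse KO3 it was -0.51 and -0.89. With both mice left out, which left 2 mice per genotype, it was -0.26 in M0, with 7 of 9 below 0, and -0.63 in M2, with 9 of 9 below 0, and the members called by edgeR were 0 in each case. The M0 and M2 libraries of mouse KO3 held 35495519 and 37866974 counts, each the second deepest of its 3.

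**Figure D2:**
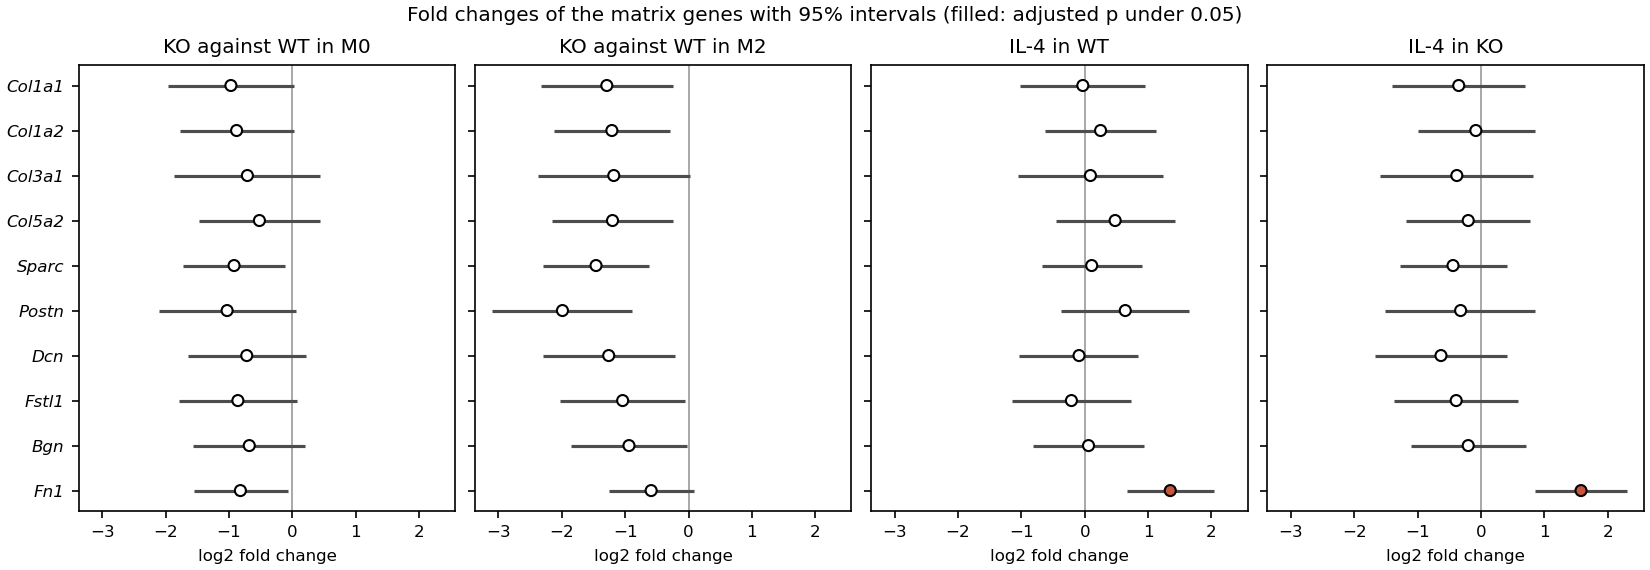
Log2 fold change (horizontal axis) of each matrix gene with its 95% interval in 4 comparisons, KO against WT in M0 and in M2 and IL-4 against no IL-4 in WT and in KO, n = 3 libraries per group. Filled points mark an adjusted p under 0.05, which only Fn1 reached, in both comparisons of IL-4, whereas all 10 genes lay below 0 in both comparisons of the genotypes.

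The second comparison asked which of the genes responded to IL-4. Fn1 rose in both genotypes, and the other 9 genes were not called in either. IL-4 affected a large part of the transcriptome, with 50.0% of all genes called in WT and 52.8% in KO, so that 1 of 10 members was below the background in each. In WT the 9 genes had log2 fold changes from -0.21 (Fstl1) to 0.64 (Postn), with a median of 0.09 and edgeR's adjusted p from 0.277 to 0.963. In KO they had changes from -0.63 (Dcn) to -0.08 (Col1a2), with a median of -0.35 and edgeR's adjusted p from 0.297 to 0.897. The median moved when 1 library was left out, in WT between -0.17 (without WT1 in M2) and 0.26 (without WT2 in M2), and in KO between -0.76 (without KO3 in M0) and 0.01 (without KO1 in M0), with -0.02 without KO2 in M0 and -0.01 without KO3 in M2. For Col1a1 the 95% interval was -1.02 to 0.95 in WT and -1.4 to 0.7 in KO, so that a rise of up to 0.95 in WT and a change of -1.4 in KO lay within the error.

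Because M0 and M2 libraries of the same mouse varied together, the mouse was also fitted as a replicate block, which narrowed the intervals. In this paired fit Col5a2 was called in WT (log2 fold change 0.5, SE 0.16, edgeR's adjusted p = 0.02) and Sparc and Col3a1 were called in KO (-0.39, SE 0.14, adjusted p = 0.0394, and -0.37, SE 0.14, adjusted p = 0.0415). Col5a2 was higher with IL-4 in 3 of 3 WT mice, by 0.35, 0.91 and 0.33 on the log2 scale. Col3a1 was lower in 3 of 3 KO mice, with changes of -0.49, -0.33 and -0.23, whereas Sparc had -0.7, -0.37 and 0.02. Without mice WT1 and KO3 the median of the 9 genes was -0.02 in WT and -0.4 in KO, and Col1a1 was called in KO (-0.45, SE 0.15, edgeR's adjusted p = 0.034). How far the responses of KO and WT to IL-4 differed was also tested, and a difference was called for 3.24% of all genes and for 0 of 10 members, with log2 differences of the 9 genes from -0.96 (Postn) to -0.19 (Fstl1) and edgeR's adjusted p from 0.528 to 0.909. DESeq2 also called 0 members, and without the block 0 had an unadjusted p under 0.05. With the mouse as a block, 3 of the 9 genes had one, Col5a2 (-0.72, SE 0.23, edgeR's adjusted p = 0.0899), Sparc (-0.48, SE 0.19, edgeR's adjusted p = 0.155) and Col3a1 (-0.44, SE 0.18, edgeR's adjusted p = 0.176).

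Fn1 differed from the other members in its response. It was at 14.3, 6.57 and 7.32 CPM in WT M0 and 30.1, 20.7 and 21.1 CPM in WT M2, and its log2 fold change was 1.35 (SE 0.32, edgeR's adjusted p = 0.00345). In KO it was at 6.87, 6.53 and 2.82 CPM in M0 and 14.2, 19.6 and 14.1 CPM in M2, and the log2 fold change was 1.58 (SE 0.33, edgeR's adjusted p = 0.00137). The groups did not overlap in either genotype, and Fn1 was higher with IL-4 in each mouse, by 1.08, 1.66 and 1.52 on the log2 scale in WT mice 1 to 3 and by 1.05, 1.58 and 2.32 in KO mice 1 to 3. With the mouse as a block the changes were 1.39 (SE 0.18, edgeR's adjusted p = 0.000123) in WT and 1.62 (SE 0.19, edgeR's adjusted p = 5.17e-05) in KO. Over 18 alternatives, including each library left out, the log2 fold change lay between 1.0 and 1.79 in WT and between 0.99 and 1.83 in KO, with a highest adjusted p of 0.0188 and 0.00897. Without mice WT1 and KO3 it was 1.59 in WT and 1.34 in KO (edgeR's adjusted p = 5.87e-05 and 0.00012). A difference in response between the genotypes was not detectable (difference 0.23, 95% interval -0.76 to 1.22, edgeR's adjusted p = 0.838).

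The level of Fn1 nevertheless followed the other matrix genes within a treatment. It was highest in mouse WT1 in both M0 and M2 and lowest in mouse KO3 in M0, whereas in M2 mice KO1 and KO3 were level, at 14.2 and 14.1 CPM and 2.83 and 2.94 TPM. Over the 6 M0 libraries, Fn1 correlated with the summed CPM of the other 9 genes at a Pearson r of 0.93 and a Spearman rho of 0.94, and over the 6 M2 libraries at 0.97 and 1.0, a rho that rests on the order of KO1 and KO3. Without the 2 libraries farthest from the median of that sum, WT1 and KO3 in each treatment, r was 0.91 in M0 and 0.87 in M2, on 4 libraries each. These values describe 6 mice, the same in both treatments, and the values of a library share its scaling factor. All WT sums exceeded all KO sums in M2. In M0 the sums of WT2, KO1 and KO2 were level, at 45.5, 45.6 and 45.5 CPM. Within a genotype there were only 3 libraries per treatment, too few for a correlation.

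A straight line through the M0 libraries had a slope of 0.157 and met the axis at -0.248 CPM of Fn1 where the sum of the other genes is 0. Leaving out each library in turn gave values at the axis from -2.85 to 1.83 CPM. Through the M2 libraries the line had a slope of 0.215 and met the axis at 9.61 CPM, with a range of 7.95 to 10.9 CPM when each library was left out. The M0 line thus met the axis near 0, and the M2 line well above it, while the ranges of slopes, 0.099 to 0.2 and 0.179 to 0.24, overlapped. These lines were drawn after the values were seen, and they extend below the lowest sums of 13.4 CPM in M0 and 14.4 CPM in M2.

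**Figure D3:**
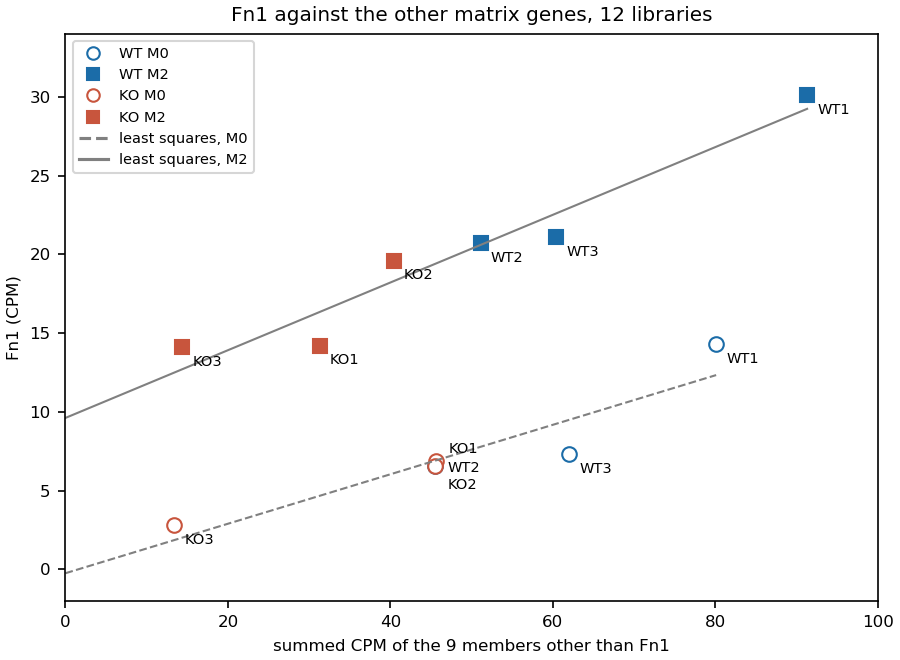
Fn1 (vertical axis, CPM) against the summed CPM of the 9 other matrix genes (horizontal axis) in 12 libraries, labelled by mouse, with M0 as open circles, M2 as filled squares and a least-squares line for each treatment. The M2 point lies above the M0 point of the same mouse throughout, from mouse KO3 with the lowest sums (14.1 against 2.82 CPM of Fn1) to mouse WT1 with the highest (30.1 against 14.3 CPM).

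Relative to the other 9 genes, Fn1 was at 17.8%, 14.5% and 11.8% in WT M0, 15.1%, 14.3% and 21.1% in KO M0, 33.0%, 40.5% and 34.9% in WT M2, and 45.5%, 48.4% and 97.6% in KO M2. The ratio was thus higher in M2 than in M0 in each of the 6 mice, and the highest value was that of mouse KO3, which had the least of the other genes. For comparison, the ratio of Sparc to Col1a1 remained between 37.4% and 62.6% over all libraries and that of Bgn to Col1a1 between 26.0% and 45.2%, whereas that of Fn1 to Col1a1 ran from 40.9% to 355%. When the mean level of the 9 genes was added to the model as a covariate, an alternative chosen after the data were seen, the change of Fn1 with IL-4 was 1.28 (SE 0.18, edgeR's adjusted p = 0.000127) in WT and 1.83 (SE 0.19, edgeR's adjusted p = 1.1e-05) in KO. In the same fit KO differed from WT by -0.23 (SE 0.23, edgeR's adjusted p = 0.612) in M0 and by 0.32 (SE 0.25, edgeR's adjusted p = 0.678) in M2, compared with -0.82 and -0.59 without the covariate. Whether the Fn1 transcripts came from macrophages or from other cells was not tested.

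**Figure D4:**
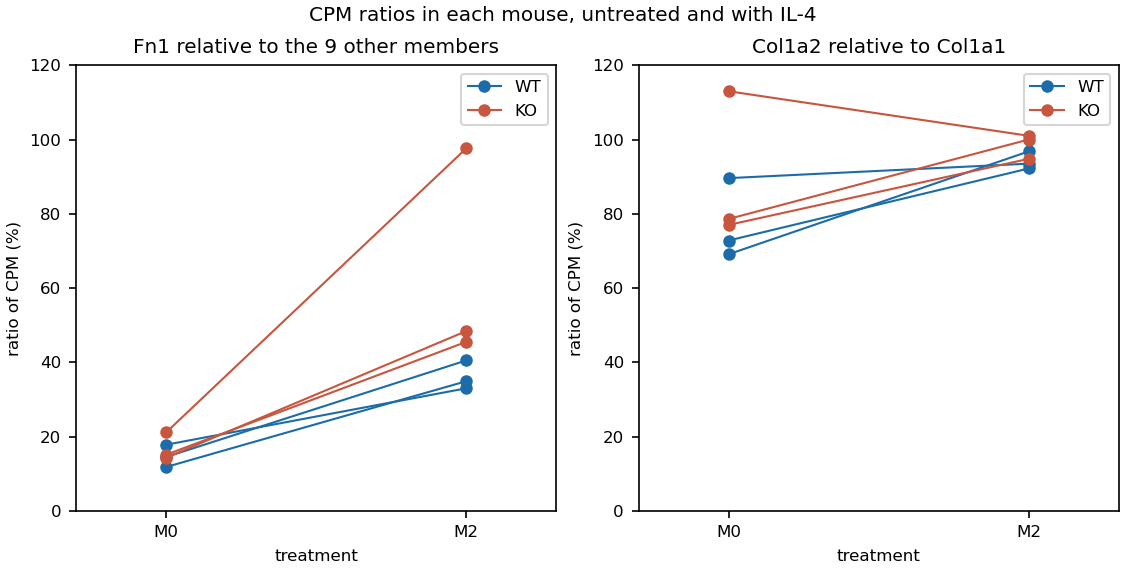
Ratio of CPM in percent (vertical axis, starting at 0) of Fn1 to the sum of the other 9 matrix genes (left) and of Col1a2 to Col1a1 (right) in M0 and M2, 1 line per mouse, WT in blue and KO in red. The ratio of Fn1 was 11.8% to 21.1% in M0 and 33.0% to 97.6% in M2, with no overlap. That of Col1a2 to Col1a1 was 69.1% to 113% in M0 and 92.2% to 101% in M2. It was higher in M2 in each mouse but KO3, which had 113% in M0, beside 69.1% to 89.6% in the other mice.

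The 8 genes whose log2 CPM over the 12 libraries was most like the mean of the 9 genes were matrix and contractile genes. They were Hspg2 (perlecan, r = 0.979), Serpinh1 (the collagen chaperone HSP47, 0.96), Col6a3 (0.959), Tagln and Col5a1 (0.952 each), Col5a3 (0.942), and Cald1 and Acta2 (0.937 each), all at a mean of 1.34 to 5.34 CPM. For the deviations from the group means, Ccn2, Tnc and Cyp1b1 joined Hspg2, Serpinh1, Col5a1, Col6a3 and Acta2. The genes most like Fn1 in level were Usp10 (0.961), Rai1 (0.951), Trim32 (0.934), Pnpla7 and Pald1 (0.933 each), Myh10 (0.932), Adgre1 (the macrophage marker F4/80, 0.931) and Smo (0.93). For deviations from the group means, where the effect of IL-4 is removed, the 8 genes most like Fn1 were Tmem170b (0.94), Zfp74 (0.922), Tnc (0.911), Epb41l1 (0.907), Kank3 (0.905), Fbn1 (0.903), Col5a1 (0.896) and Ipo4 (0.894), of which Tnc, Fbn1 and Col5a1 encode matrix proteins. These likenesses were ranked over 12 libraries from 6 mice among 11346 genes that averaged 1 CPM or more, and have no test.

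Of 16 other collagen genes, 13 passed the count filter, and 3 of these were set apart after their values were seen because they were abundant. Col4a1 and Col4a2, the basement membrane collagens, were at means of 34.5 and 56.7 CPM in WT M0 and 34.6 and 61.2 CPM in KO M0, and both fell with IL-4, Col4a1 by 1.38 on the log2 scale in WT and by 1.3 in KO (edgeR's adjusted p = 1.65e-06 and 1.44e-06). Col18a1, the source of endostatin, was at 584 CPM in WT M0 and fell by 0.37 in WT and by 0.55 in KO (edgeR's adjusted p = 0.00824 and 0.000539). The remaining 13 of the 16 listed include those that did not pass the filter. Together they were at 15.1 to 24.4 CPM in WT M0, 7.14 to 18.0 CPM in KO M0, 16.1 to 26.5 CPM in WT M2 and 6.0 to 15.0 CPM in KO M2. Between the genotypes 1 of the 13 tested collagens was called in M0, Col16a1, which fell in KO by 1.9 on the log2 scale (SE 0.51, edgeR's adjusted p = 0.034) from a mean of 0.492 CPM, and 0 in M2. Col16a1 was not called without mouse WT1 (-1.7, edgeR's adjusted p = 0.105) or without mouse KO3 (-1.52, edgeR's adjusted p = 0.121). For the 13 tested collagens, the 3 abundant ones included, the median log2 fold change between the genotypes was -0.57 in M0 and -0.91 in M2. With IL-4, 4 of these 13 fell and 0 rose in WT, and 5 fell and 0 rose in KO, beside 50.0% and 52.8% of all genes called.

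Among 19 other genes of the stromal matrix, 10 were tested and 0 were called between the genotypes, with a median of -0.67 in M0 and -1.21 in M2 on the log2 scale. IL-4 raised Fbln5, an elastic fibre protein, at a level below 1 CPM, and lowered Ltbp2 by 1.1 on the log2 scale in WT and by 1.34 in KO (edgeR's adjusted p = 0.0148 and 0.00483). Tnc, which encodes tenascin C, averaged 5.74 CPM in WT M0, 3.45 CPM in KO M0, 9.62 CPM in WT M2 and 4.11 CPM in KO M2, without a call. Lum, Fmod, Eln, Mfap5 and Tnxb had at most 5 counts each over all 12 libraries.

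Of 20 genes of collagen processing, 18 were tested, with a summed level of 1500 to 1530 CPM in WT M0 and 1690 to 1710 CPM in KO M0, and the median log2 fold change between the genotypes was -0.03 in M0 and -0.05 in M2. The sum was set by abundant enzymes such as P4hb, at 635 to 802 CPM, whereas the chaperone gene Serpinh1 ran from 0.774 to 5.68 CPM. In M2 the fold change was -1.12 for Serpinh1, -1.08 for Adamts2, -1.03 for Adamts14, and -0.85 for Lox and Bmp1, none of them called, while Loxl3, Plod2 and P4ha2 averaged 8.36, 3.33 and 4.72 CPM in WT M2 and 8.57, 3.5 and 4.56 CPM in KO M2. P4ha1 and P4hb, the subunits of prolyl 4-hydroxylase, rose in KO M0 by 0.43 and 0.24 on the log2 scale (edgeR's adjusted p = 0.00143 and 0.0171), and 0 genes were called in M2. Without mouse KO3, P4ha1 was called (0.47, edgeR's adjusted p = 0.0107) and P4hb, at 0.23, was not (edgeR's adjusted p = 0.0979). With IL-4, 4 rose and 3 fell in WT, and 2 rose and 4 fell in KO, beside 50.0% and 52.8% of all genes called. Plod2, a lysyl hydroxylase, fell by 1.39 and 1.5 (edgeR's adjusted p = 4.43e-05 and 1.07e-05), and Lox, which crosslinks collagen, rose in WT by 1.35 (edgeR's adjusted p = 0.00384).

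Of 18 genes of receptors that bind or take up fibronectin and collagen, 15 were tested. With IL-4, 5 rose and 6 fell in WT as well as in KO, beside the 50.0% and 52.8% of all genes called. Itgb3, the beta 3 integrin chain, rose by 4.89 in WT and 5.81 in KO, Mrc1, a scavenger of collagen fragments, by 3.27 and 3.96, and Sdc4, a fibronectin co-receptor, by 2.22 and 2.42 on the log2 scale. Itga5, which forms the fibronectin receptor with Itgb1, fell by 1.53 and 1.17. Between the genotypes 4 fell and 0 rose in M0, namely Itgb3 by 1.07 (edgeR's adjusted p = 0.00311), Mrc1 by 0.86 (edgeR's adjusted p = 0.000522), Itga5 by 0.38 (edgeR's adjusted p = 0.00616) and Itgb5 by 0.37 (edgeR's adjusted p = 0.0302), and 0 were called in M2. Without mouse KO3, Itgb3 and Mrc1 were called (edgeR's adjusted p = 0.0148 and 0.00652) and Itga5 and Itgb5, at log2 fold changes of -0.36 and -0.37, were not (edgeR's adjusted p = 0.0577 and 0.129). Without mouse WT1 Itgb5 was at -0.28 (edgeR's adjusted p = 0.052). The response to IL-4 was larger in KO than in WT for Itgb3 (0.93, edgeR's adjusted p = 0.0218) and Mrc1 (0.69, edgeR's adjusted p = 0.0233). Without mouse KO3 the differences were 1.08 and 0.73 but were not called with fewer mice (edgeR's adjusted p = 0.076 and 0.108), and without mouse WT1 that of Itgb3 was 0.75 (edgeR's adjusted p = 0.0505).

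Of the 10 genes listed as matrix made by macrophages, 4 rose and 1 fell with IL-4 in WT, and 3 rose and 2 fell in KO. These counts stand beside the 50.0% and 52.8% of all genes called, and are near that background. Between the genotypes 1 fell in KO M0, Spp1 by 0.32 on the log2 scale (edgeR's adjusted p = 0.0323), and 0 were called in M2. Tgfbi rose by 0.54 and 0.58 on the log2 scale (edgeR's adjusted p = 7.67e-05 and 3.89e-05) and Spp1, osteopontin, fell by 0.59 and 0.4 (edgeR's adjusted p = 6.7e-05 and 0.00126). Hspg2 was in this list, but its libraries followed the stromal genes, with 2.43 CPM in mouse WT1 and 0.36 CPM in mouse KO3 in M0. Of 13 genes of TGF-beta signalling, an inducer of collagen and fibronectin in many cells, 12 were tested. Between the genotypes 2 fell and 0 rose in KO M0, and 1 fell and 0 rose in KO M2, beside 9.78% and 2.68% of all genes called. Smad3, which carries the signal to the nucleus, was among those that fell in KO M0, by 0.47 on the log2 scale (edgeR's adjusted p = 0.0291). It was not called without mouse WT1 (-0.38, edgeR's adjusted p = 0.0717) or KO3 (-0.43, edgeR's adjusted p = 0.158). With IL-4, 3 rose and 4 fell in WT, and 2 rose and 4 fell in KO, beside 50.0% and 52.8% of all genes called. Among them were Tgfb1, which rose by 0.35 and 0.34, and Smad3, which fell by 2.32 and 2.12.

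Of 17 markers of fibroblasts and marrow stroma, 7 were tested. Between the genotypes 1 rose and 0 fell in M0, and 1 rose and 1 fell in M2. The whole list summed to 83.0 to 92.5 CPM in WT M0, 182 to 203 CPM in KO M0, 77.6 to 90.8 CPM in WT M2 and 242 to 308 CPM in KO M2. Without Kitl the other 16 together were at 5.59 to 8.76 CPM in WT M0, 2.43 to 5.55 CPM in KO M0, 6.13 to 7.45 CPM in WT M2 and 2.02 to 4.14 CPM in KO M2. Kitl, the ligand of KIT, was set apart after its values were seen, because at 70.1 to 305 CPM it made up most of the list and rose in KO by 1.25 in M0 and by 1.88 in M2 (edgeR's adjusted p = 4.05e-05 and 1.31e-06). Prrx1, a transcription factor of mesenchymal cells, fell in KO M2 by 1.49 (SE 0.35, edgeR's adjusted p = 0.0445), at 1.04, 0.876 and 0.818 CPM in WT M2 against 0.339, 0.414 and 0.215 CPM in KO M2. It was not called without mouse WT1 (-1.38, edgeR's adjusted p = 0.119) or without mouse KO3 (-1.26, edgeR's adjusted p = 0.185). Cdh11, Pdgfrb, Cxcl12, Vcam1 and Pdgfra had 425, 305, 286, 185 and 90 counts over all 12 libraries, whereas Tcf21, Meox1, Thy1, Lepr, Prrx2 and Twist2 had 0 to 5 each. Mural cell markers, with 5 of 9 tested and 0 called between the genotypes, summed to 15.5 to 22.3 CPM in WT M0, 7.41 to 16.2 CPM in KO M0, 13.6 to 19.9 CPM in WT M2 and 5.89 to 12.4 CPM in KO M2, with Des, Rgs5 and Cnn1 at 13 counts or fewer over all libraries. The whole fibroblast list was higher in KO, whereas its sum without Kitl was lower in KO, by 5.55 against 5.59 CPM at the nearest in M0, and the mural sums overlapped in M0 and not in M2. The part of such cells in the difference between the genotypes was not tested.

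Defining markers of osteoblasts, which also make type I collagen, were at or near 0. Ibsp and Dmp1 had 0 counts over the 12 libraries, and Alpl, Bglap2 and Bglap3 had 1 each. The summed level of the 11 osteoblast markers was 7.79 to 15.1 CPM over all libraries. Endothelial markers summed to 49.1 to 57.0 CPM in WT M0, 54.8 to 59.0 CPM in KO M0, 364 to 405 CPM in WT M2 and 315 to 345 CPM in KO M2, and Flt1 and Pecam1, which supplied much of the rise, went up by 8.61 and 4.74 on the log2 scale in WT, while Cldn5, Emcn and Robo4 had at most 5 counts each. Megakaryocyte markers were at 360 to 477 CPM in WT M0, 451 to 473 CPM in KO M0, 429 to 465 CPM in WT M2 and 533 to 592 CPM in KO M2, mainly Pf4, with Gp9 and Gp6 at 0, and of 4 tested 1 was called between the genotypes, Pf4, which rose in KO M2 by 0.38 on the log2 scale (edgeR's adjusted p = 0.0414). Neutrophil markers were at 34.6 to 49.0 CPM in WT M0, 41.5 to 52.8 CPM in KO M0, 27.6 to 37.9 CPM in WT M2 and 41.3 to 46.4 CPM in KO M2, and Ly6g was at 0. That sum was mostly Mmp8, which rose in KO M0 by 0.91 on the log2 scale (edgeR's adjusted p = 0.00308), while Ltf fell by 2.09, Ngp by 1.82 and S100a9 by 1.38 (edgeR's adjusted p = 0.00759, 0.018 and 0.0124), and the median of the 6 genes tested was -1.16. Without mouse KO3, Ltf, Ngp and S100a9 had log2 fold changes of -1.99, -1.83 and -1.35 and were not called (edgeR's adjusted p = 0.0653, 0.101 and 0.0796), and without mouse WT1 all 3 were called (edgeR's adjusted p = 0.0161, 0.0362 and 0.0252). Lymphoid markers stayed between 5.09 and 9.11 CPM and erythroid markers between 0 and 0.166 CPM. In M2 the sum of the endothelial list was lower in all KO than in all WT libraries.

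**Figure D5:**
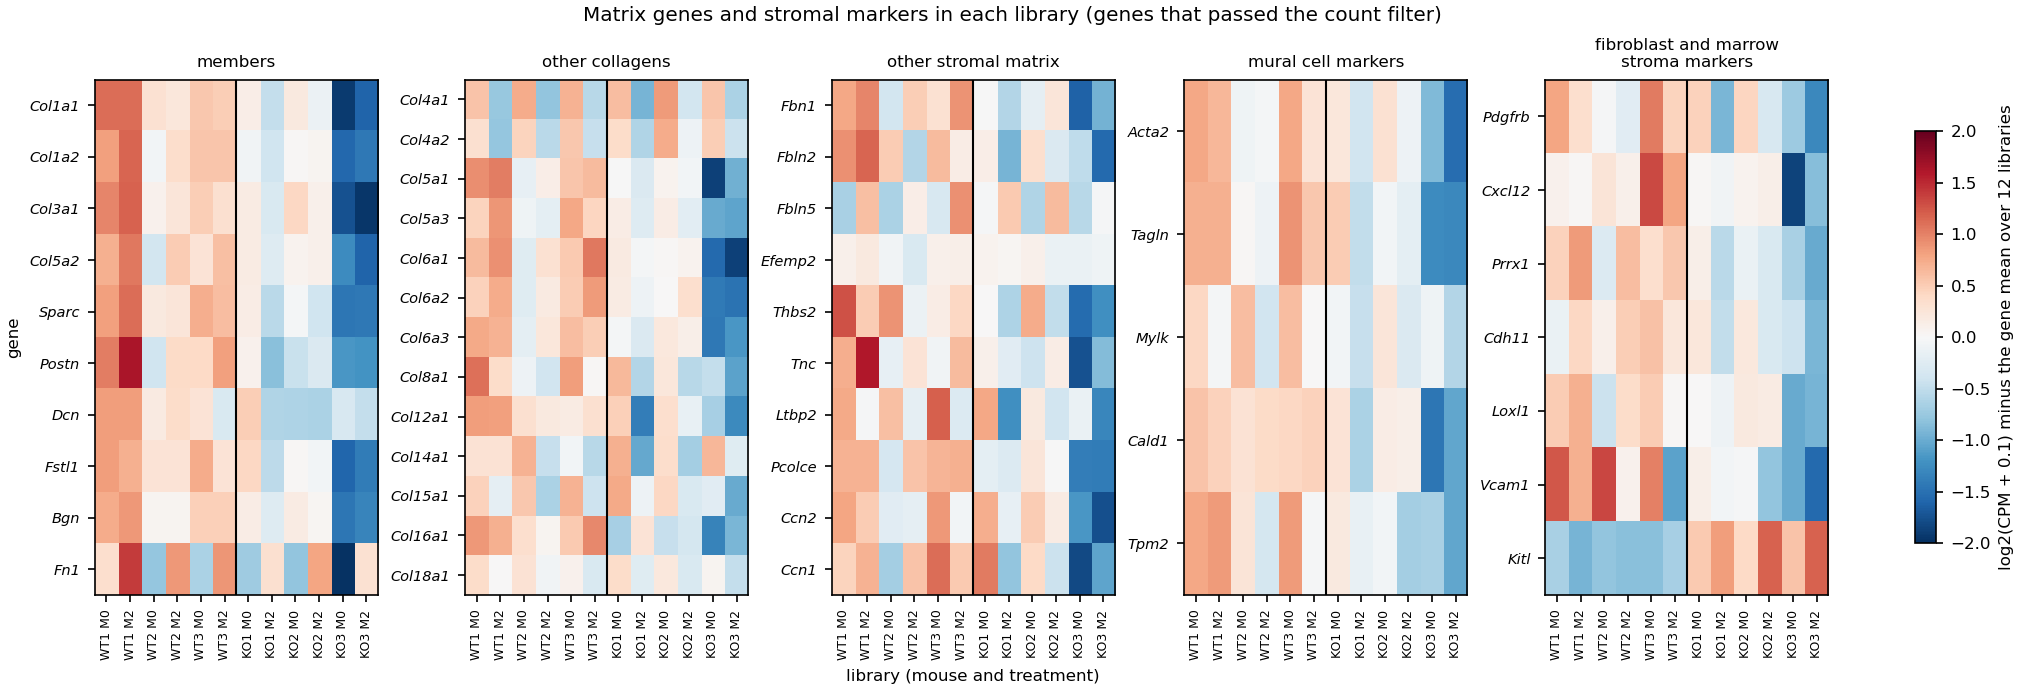
Heat map of log2(CPM + 0.1) minus the mean of the gene over 12 libraries, from -2 (blue) to 2 (red), for members, other collagens, other stromal matrix genes, mural cell markers and fibroblast markers that passed the count filter, with libraries ordered by mouse and a line between WT and KO. The columns of mouse KO3 are blue for most genes in both M0 and M2, but not for Col4a1, Col4a2, Col18a1 and Kitl, and Fn1 alternates between M0 and M2.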

How the data were processed

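RNA-Seq was performed on poly(A) RNA of 12 BMM libraries (directional kit, 1 × 75 nt). The authors deposited 1 table per library from the Grape-nf pipeline, with expected counts, which are estimated reads per gene, and TPM, in columns named as RSEM writes them. The aligner's version and the strand setting of the counting are not given in the sources used here. The submitters' processing notes name GRCm38, FastQC 0.11.2 and DESeq2 1.40.2. Of the deposited comparison tables only the gene symbols were used, and their fold changes and p-values were left out.

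Groups came from the labels. Expected counts were rounded (those of the members were whole), filtered with filterByExpr and fitted with edgeR 4.0.16 in R 4.3.3 (TMM, quasi-likelihood test, 1 coefficient per group over 12 libraries). Calls were made at a Benjamini-Hochberg adjusted p under 0.05 over 12846 genes, and intervals are at 95%. Alternatives were DESeq2 1.42.0, limma 3.58.1 on log2(TPM + 1) and log2(TPM + 0.1), other scaling and filters, a replicate block (by mouse where M0 and M2 were compared, by number where KO and WT were), and libraries left out. An exact permutation test of 3 against 3 libraries cannot go below p = 0.1 and was not used. The fits were tested on simulated data. Python 3.11.15 with scipy 1.17.1 served for the other steps. Promoters came from RefSeq, with both strands searched.

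M0 and M2 libraries of 1 number deviated together from their group means (correlations of 0.103 to 0.364) and were taken as pairs from 1 mouse, and WT and KO libraries of 1 number did not (-0.068 to 0.04). The replicates are 3 mice per group by the study's account. The main fit treats the 12 libraries as independent, although the M0 and M2 libraries of a mouse varied together. Its p-values for the genotypes thus rest on a spread estimated as if each library came from its own mouse. With the mouse as a block, the p-values for IL-4 measure the spread of the change within mice. The members and lists were chosen with earlier results of these data known. Genes named beyond the members are up to 5 called genes per list and comparison with a mean of at least 1 CPM, markers at or near 0, and the 8 genes most like in pattern. Col16a1, Fbln5, Prrx1, Tnc, Pf4, Cdh11, Pdgfrb, Cxcl12, Vcam1, Pdgfra, Adamts2, Adamts14, Bmp1 and the values of Hspg2, Serpinh1, Loxl3, Plod2 and P4ha2 between the genotypes were added after they were seen. Some genes are not reported here.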

Additional observations from a re-analysis of the deposited data

How the results depend on the processing

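The rise of Fn1 with IL-4 was called in both genotypes under each alternative run, and no called value changed direction. The mean filter of 1 CPM removed Postn and Dcn, which rest on 5 to 51 reads per library, so that small changes of both were not detectable at this depth. Of the members' log2 fold changes under other tools, filters, scalings and the block, 362 kept their direction and their side of the threshold, 9 gained a call, and 7 without a call changed sign. When each library was left out, 328 kept both and 32 without a call changed sign, among the responses to IL-4 and their difference. Settings that leave out whole mice or add the stromal covariate were chosen after the data were seen, and the causes of the shifts below were not tested.

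For KO against WT in M0, 1256 genes were called by edgeR, against 752 and 700 by limma on log2(TPM + 1) and log2(TPM + 0.1), 408 without mouse KO3, 286 without mice WT1 and KO3, 613 with the stromal covariate, and 461 to 1461 when each library was left out. In M2, 344 were called, against 718 by DESeq2, 70 and 57 by limma, 165 in the 6 libraries alone, 20 without mouse KO3 and also without both mice, 21 with the covariate, and 25 (without the KO3 library) to 298 when each library was left out. For the difference between the IL-4 responses, 416 were called, against 810 by DESeq2, 113 by limma at either pseudocount, 35 without mouse KO3, 31 without both mice, and 183 to 643 when each library was left out.

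Of the members, 2 were called in M2 by DESeq2, 2 without the low-count filter and 2 (Postn and Sparc, edgeR's adjusted p = 0.044 and 0.0467) with the library number as a replicate block, against 0. That number joins WT and KO mice that did not vary together. Pairing M0 and M2 by mouse as a replicate block raised the called members to 2 for IL-4 in WT and 3 in KO, against 1 each, and all genes called for the difference to 1003. Without mice WT1 and KO3, 2 members were called for IL-4 in KO. The block changed no other count of calls by over 1.5 times.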
